A study of Mus musculus with 56 samples.

Results

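Complex I of the respiratory chain (NADH:ubiquinone oxidoreductase) was examined through the genes of its nuclear-encoded subunits in mouse liver. Members were the protein-coding genes whose symbol starts with Ndufa, Ndufb, Ndufc, Ndufs or Ndufv followed by a digit, matched by Ensembl identifier to the GENCODE annotation of the mouse genome. The rule found 37 genes among the 45513 listed, and all 37 were present in the count tables and had enough reads to be tested. By the place of the protein in the complex, 7 members were core catalytic subunits, 9 were accessory subunits of the peripheral arm, 9 of the proximal membrane arm and 10 of the distal membrane arm. The other 2, Ndufa4 and Ndufa4l2, carry the family name but lie outside complex I in current structures.

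Liver mRNA was sequenced from 56 female APOE*3Leiden.CETP mice, transgenic animals with a human-like lipoprotein metabolism. Their stated age of 9 to 14 weeks is shorter than the treatment and was read as the age at entry. The study asked how BCR-ABL1 tyrosine kinase inhibitors, drugs for chronic myeloid leukaemia, act on atherothrombosis and its risk factors. Every mouse, controls included, ate a Western-type diet with 15% cacao butter and 0.15% cholesterol. Treatment with the kinase inhibitors lasted 16 weeks after a run-in on the diet, and the duration for L-NAME was not given in the sources used here. Each of the 7 groups had 8 mice. Control mice received the vehicle, 5% carboxymethyl cellulose. Imatinib was given at 150 mg/kg in 2 gavages per day, nilotinib at 10 or 30 mg/kg once daily, and ponatinib at 3 or 10 mg/kg once daily. Per the paper, mice outside the imatinib group also got an added gavage of vehicle alone. Whether this held for L-NAME mice was not given in the sources used here. Nilotinib was developed from imatinib, but their doses and numbers of drug gavages differ, so their values stand side by side and were not compared. The L-NAME group drank water with 0.12 to 0.20% of this inhibitor of nitric oxide synthase. All effects were measured in mice of 1 sex and 1 transgenic line on 1 diet, and no group without the Western-type diet was analysed here.

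Complex I oxidises NADH in the mitochondrial matrix, passes the electrons along a chain of iron-sulfur clusters to ubiquinone and pumps protons across the inner membrane. Core subunits of the peripheral arm are encoded in the nucleus and bind NADH, flavin and the clusters, core subunits of the membrane arm are encoded in mitochondrial DNA, and a shell of accessory subunits holds the complex together and is needed for its assembly. Liver cells are rich in mitochondria and use the complex for fatty acid oxidation and gluconeogenesis.

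Reads assigned to genes ranged from 5342379 to 97473341 per mouse with a median of 7570238, and the deepest library, from an L-NAME mouse, was the single one above 17996732. The hepatocyte markers Alb, Ttr, Fabp1, Cyp2e1, Cps1 and Ass1 were all detected, with group medians of their summed level from 85499 to 128665 CPM (counts scaled to a common library size). Of these 6, 2 were called higher and 1 lower with imatinib and with ponatinib 10 mg/kg, 1 higher and 1 lower with nilotinib 30 mg/kg and with L-NAME, 0 with ponatinib 3 mg/kg, and 1 lower at 10 mg/kg nilotinib. The summed level of the 4 erythroid markers (haemoglobin genes) had a median of 226 CPM in control (range 120 to 406), 414 with ponatinib 10 mg/kg (range 144 to 1091), 457 with ponatinib 3 mg/kg (range 165 to 1256) and 434 with nilotinib 30 mg/kg (range 231 to 695). All 4 were called higher by edgeR with ponatinib 10 mg/kg and 0 in the other groups. Yet all 4 had an unadjusted p below 0.05 with ponatinib 3 mg/kg and nilotinib 30 mg/kg, as did 9.96% and 18.7% of all genes. Kupffer cell markers gave 2 of 6 lower with imatinib and 1, 2 and 1 of 6 higher with nilotinib 30 mg/kg, ponatinib 10 mg/kg and L-NAME. Of 6 stellate markers, 1 was lower with imatinib and with either ponatinib dose, and of 5 leukocyte markers 1 was lower with imatinib. No endothelial, cholangiocyte, adipocyte or pancreas marker passed the test against control. Of all genes tested, 5.69% were called higher and 4.58% lower with imatinib, and 7.24% and 5.87% with ponatinib 10 mg/kg. These shares were 2.34% and 3.43% with nilotinib 30 mg/kg and 5.55% and 6.24% with L-NAME. At the lower doses they were 0% and 0.0419% with ponatinib and 0.468% and 0.943% with nilotinib. Uniquely aligned reads that fell outside annotated genes made up 7.97% ± 0.42 (SD, n = 8) in control, 10.0% ± 1.82 with imatinib, 9.75% ± 0.69 and 10.5% ± 1.38 with nilotinib 10 and 30 mg/kg, 8.53% ± 0.61 and 11.0% ± 1.99 with ponatinib 3 and 10 mg/kg, and 11.0% ± 2.45 with L-NAME. In 4 groups all 8 mice exceeded every control (exact permutation test, 2-sided, p = 0.0001554, the smallest it can give, and p = 0.000233 after Benjamini-Hochberg adjustment over 6 comparisons). The exact permutation p was 0.00109 for imatinib and 0.0466 for ponatinib 3 mg/kg (adjusted 0.00131 and 0.0466). The part of these differences in the results was not tested other than by the fits named below, and in whole liver fewer cells of a type and less RNA per cell cannot be told apart.

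Levels of the members in control livers spanned a wide range. Per kilobase of annotated exon, the highest median levels were those of Ndufb9 (127 CPM per kb), Ndufa4 (98.7) and Ndufa8 (97.9). The lowest were those of Ndufa4l2 (2.12 CPM per kb), Ndufb4 (2.34), Ndufb2 (3.54) and Ndufs5 (4.86). The low place of Ndufb2 rests on its annotated exon length of 5628 bases, since its median before division was 19.9 CPM. Ndufb9 is an accessory subunit of the distal membrane arm, and Ndufa8 one of the proximal membrane arm. With the length of the principal transcript as divisor, Ndufa4 (223 CPM per kb), Ndufb9 (186), Ndufb10 (138) and Ndufa6 (136) led, and 6 of the 10 highest members stayed among the 10 highest, so the order depended on the length chosen. The order of the members differed little between groups: Spearman's rho across the 37 members between control and a treated group lay between 0.963 and 0.986, a description over genes that share their libraries. Reads were few for Ndufb4 (as few as 21 in 1 mouse), Ndufs5 and Ndufa4l2 (0 in at least 1 mouse each). Ndufb4 and Ndufs6 have processed copies in the annotation, and the counting left out reads with several alignments, so both values are uncertain.

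Against control, most members had higher fitted levels in every treated group, and the count of members past the test differed by treatment. A member was called when the adjusted p of edgeR's quasi-likelihood test (Benjamini-Hochberg over 14314 genes) was below 0.05. With ponatinib 10 mg/kg 27 of 37 members rose, while 7.24% of all genes tested were called higher. In the imatinib group 24 members rose (5.69% of all genes), in the L-NAME group 21 (5.55%) and at 30 mg/kg nilotinib 13 (2.34%). At 10 mg/kg nilotinib 1 member rose, Ndufa4 (0.468% of all genes). With ponatinib 3 mg/kg edgeR called 0 members, as it called 0% of all genes higher, although 15 members had an unadjusted p below 0.05 (9.96% of all genes did). DESeq2 called 1 member higher (0.703% of the genes it gave an adjusted p) and limma voom 13 (2.17% of all genes). These comparisons share the control mice.

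The median log2 fold change of the 37 members was 0.65 with ponatinib 10 mg/kg, 0.61 with imatinib, 0.53 with L-NAME and 0.45 with nilotinib 30 mg/kg, while the lower doses of nilotinib and ponatinib gave 0.29 and 0.26. Over all genes tested the medians lay between -0.02 and 0.03. A single member, Ndufs1, was called lower, and it was called in 4 comparisons: imatinib (4.58% of all genes called lower), nilotinib 30 mg/kg (3.43%), ponatinib 10 mg/kg (5.87%) and L-NAME (6.24%). None was called lower with nilotinib 10 mg/kg or ponatinib 3 mg/kg, where 0.943% and 0.0419% of all genes were. Members never called against control included Ndufv1, Ndufs3, Ndufs4, Ndufs5, Ndufa9, Ndufa10 and Ndufa4l2.

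**Figure D1:**
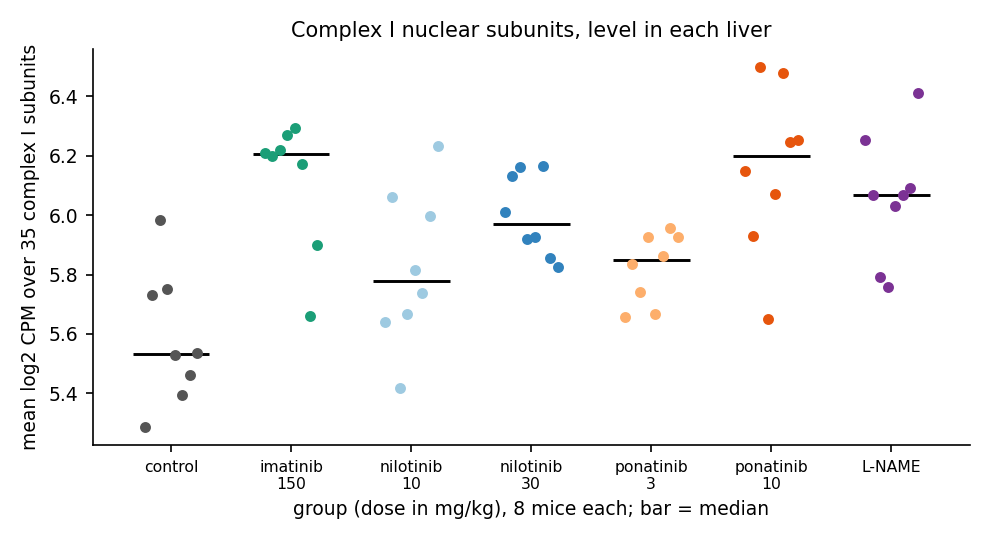
Mean log2 CPM of the 35 members that belong to complex I (y axis) in each of the 56 mice, by group (x axis), with 1 point per mouse and a bar at the group median. Group medians ran from 5.53 in control to 6.21 with imatinib, and every group overlapped control. The nilotinib 30 mg/kg and L-NAME groups did so only through the highest control mouse.

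**Figure D2:**
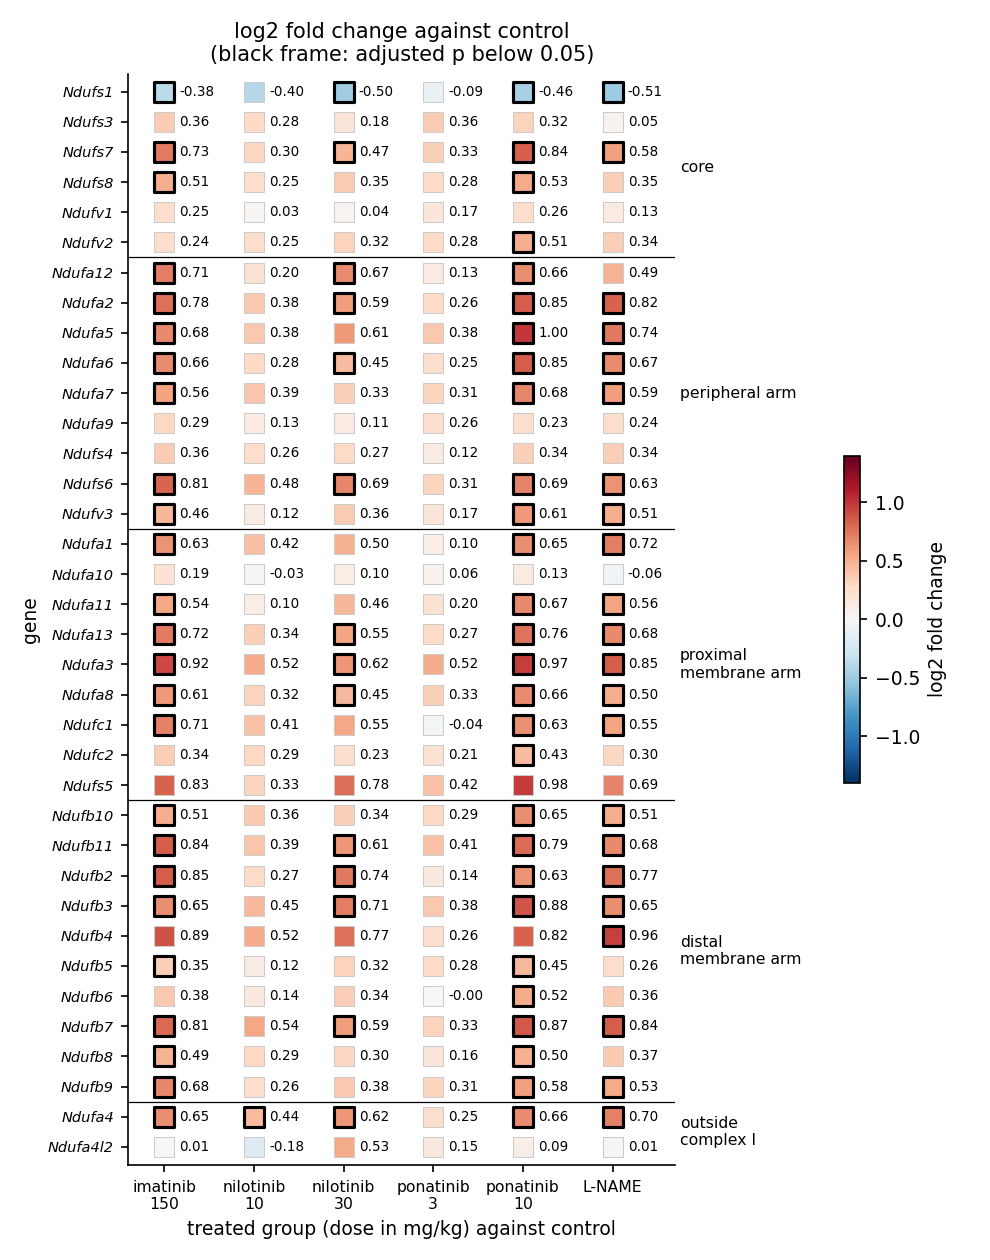
Log2 fold change against control of 36 members (y axis, grouped by place in the complex) in the 6 treated groups (x axis), shown by the colour of the square and the value beside it, with a black frame where the adjusted p was below 0.05. Most members lie above 0 in every group, whereas Ndufs1 lies below 0 in all 6.

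As a mean over the 35 members that belong to complex I, control mice had 5.29 to 5.98 log2 CPM with a median of 5.53. The medians were 6.21 with imatinib, 6.20 with ponatinib 10 mg/kg, 6.07 with L-NAME, 5.97 with nilotinib 30 mg/kg, 5.85 with ponatinib 3 mg/kg and 5.78 with nilotinib 10 mg/kg. The ranges of all groups overlapped that of control, whose highest mouse (control mouse 3, 5.98) stood above the lowest mouse of each treated group. With nilotinib 30 mg/kg and L-NAME the overlap rested on control mouse 3 alone. All mice of these groups lay above the remaining control mice, though only narrowly for the lowest L-NAME mouse.

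These counts have to be read beside transcript length, because short transcripts were higher in general in the treated livers. The other genes set beside the members left out cytosolic ribosomal protein genes and nuclear subunits of complexes II to V, whose values are given further below. With a principal transcript of up to 700 bases they numbered 173. Their median log2 fold change there was 0.54 with ponatinib 10 mg/kg, 0.48 with imatinib and 0.60 with L-NAME. In the class above 3000 bases (6348 genes) the medians were -0.15, -0.16 and -0.13. The members are short: 13 have a principal transcript of up to 700 bases, 9 have more than that and up to 1000, 7 up to 1500, 5 up to 2000, 2 up to 3000 and 1, Ndufb2, has more.

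With ponatinib 10 mg/kg the members up to 700 bases had a median of 0.68, and 10 of 13 lay above the median of the other genes of that length. In the next class, up to 1000 bases, 8 of 9 members lay above the other genes' median (0.79 against 0.42), and in the class up to 1500 bases 6 of 7 did (0.53 against 0.25). L-NAME gave 8 of 13, 8 of 9 and 4 of 7 members above the median of the other genes in these classes. Imatinib gave 11 of 13, 8 of 9 and 7 of 7.

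Where the trend of each mouse with principal transcript length was removed before the test, an alternative added after the data were seen, 5 members were called higher with ponatinib 10 mg/kg (3.52% of all genes under that fit), 2 with imatinib (2.19%), 1 each with nilotinib 30 mg/kg (0.768%) and L-NAME (2.51%) and 0 with nilotinib 10 mg/kg (0.217%) and ponatinib 3 mg/kg (0%). The L-NAME count of 1 in 37 is about the share of all genes. Ndufs1 stayed called lower in its 4 comparisons (log2 fold change -0.41 with imatinib, -0.53 with nilotinib 30 mg/kg, -0.49 with ponatinib 10 mg/kg and -0.55 with L-NAME). Of the 14314 genes, 542, 382, 856 and 756 were called lower under that fit in the same order. A count of 1 lower in 37 members is about that share or below it. Ndufb2, the member with the long principal transcript, stayed higher in 4 (0.93, 0.80, 0.70 and 0.84). It was the 1 member called higher with nilotinib 30 mg/kg and with L-NAME. Its length of 4371 bases was that of the longest of its best-ranked principal transcripts. Before the trend was removed its value with imatinib was 0.85, so its calls under this fit depend on the length assigned. Ndufb11 stayed higher in 2 (0.39 with imatinib and 0.33 with ponatinib 10 mg/kg). Ndufs7, Ndufa5 and Ndufa13 stayed called with ponatinib 10 mg/kg. The median of the members under this fit was between -0.01 and 0.11.

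**Figure D3:**
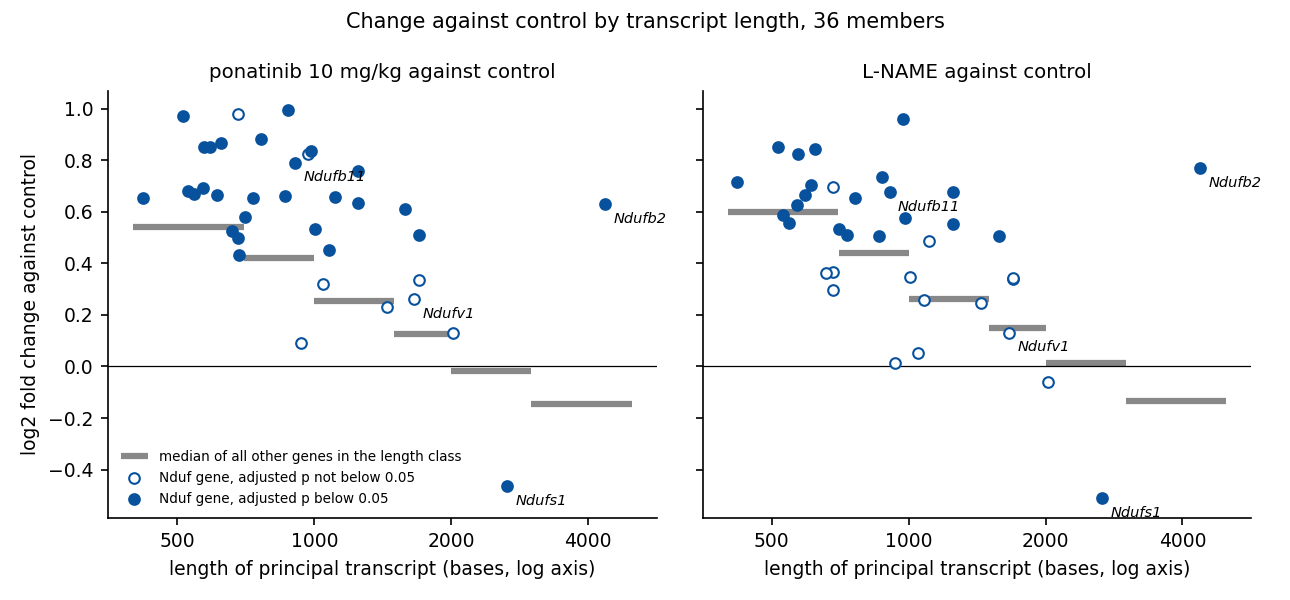
Log2 fold change against control (y axis) of 36 members by length of the principal transcript in bases (x axis, log scale) with ponatinib 10 mg/kg and L-NAME. Points are members and grey bars the medians of other genes in each length class. These other genes left out cytosolic ribosomal protein genes and nuclear subunits of complexes II to V. The medians fall from 0.54 and 0.60 in the shortest class to -0.15 and -0.13 in the longest.

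Core subunits gave fewer calls than the accessory ones. The 7 core genes, the peripheral-arm proteins that carry electrons from NADH to ubiquinone, gave 3 called higher with ponatinib 10 mg/kg, 2 with imatinib, 1 each with nilotinib 30 mg/kg and L-NAME and 0 with both lower doses. Their median log2 fold change lay between 0.13 (L-NAME) and 0.32 (ponatinib 10 mg/kg). In the accessory classes the medians with ponatinib 10 mg/kg were 0.68 for the peripheral arm, 0.66 for the proximal and 0.64 for the distal membrane arm. The difference between the classes was not tested, and the core genes have longer transcripts than most accessory genes (983 to 2661 bases).

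Ndufs1 (chr1:63143596-63176833, minus strand, mm10), the largest subunit of the complex and holder of several of its iron-sulfur clusters, was the member that fell. Control mice had 132 to 159 CPM with a median of 143. With L-NAME the values were 72.8 to 131 CPM (median 103), with nilotinib 30 mg/kg 68.7 to 128 (median 101), and with nilotinib 10 mg/kg 94.5 to 117 (median 109). In these 3 groups all 8 mice lay below every control.

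The log2 fold change of Ndufs1 was -0.51 ± 0.13 (SE) with L-NAME (edgeR adjusted p = 0.004) and -0.50 ± 0.13 with nilotinib 30 mg/kg (edgeR adjusted p = 0.00956). With nilotinib 10 mg/kg it was -0.40 ± 0.13 and did not pass (edgeR adjusted p = 0.0857), although no mouse overlapped control. Ponatinib 10 mg/kg gave 77.1 to 157 CPM (median 98.4) and imatinib 79.0 to 156 (median 103). There 7 and 6 of 8 mice lay below every control. Ndufs1 fell by 0.46 on the log2 scale with ponatinib 10 mg/kg (SE 0.13, edgeR adjusted p = 0.00851) and by 0.38 with imatinib (SE 0.13, edgeR adjusted p = 0.0426). The imatinib call was lost without the expression filter and with the trend of exon length or of GC content removed. Leaving out the 5 libraries with over 12% of reads outside genes also lost it. In these settings the calls with nilotinib 30 mg/kg, ponatinib 10 mg/kg and L-NAME stayed. With ponatinib 3 mg/kg the range was 111 to 159 CPM (median 130), overlapping control.

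Ndufs7, which carries the last iron-sulfur cluster before ubiquinone, was the core gene that rose most often. It ranged from 45.3 to 72.9 CPM in control (median 61.3), from 75.6 to 115 with imatinib (median 101) and from 59.8 to 128 with ponatinib 10 mg/kg (median 114). All 8 imatinib mice and 6 of 8 ponatinib 10 mg/kg mice lay above every control. The log2 fold changes were 0.73 ± 0.15 with imatinib (edgeR adjusted p = 0.000993), 0.84 ± 0.15 with ponatinib 10 mg/kg (edgeR adjusted p = 0.000119), 0.58 ± 0.15 with L-NAME (edgeR adjusted p = 0.00678) and 0.47 ± 0.15 with nilotinib 30 mg/kg (edgeR adjusted p = 0.0461).

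Ndufs8, another iron-sulfur subunit next to the membrane, had 55.4 to 80.8 CPM in control (median 63.6), 56.1 to 110 with imatinib (median 98.6) and 56.2 to 127 with ponatinib 10 mg/kg (median 98.9). The gene had log2 fold changes of 0.51 ± 0.13 with imatinib (edgeR adjusted p = 0.00776, 7 of 8 mice above every control) and 0.53 ± 0.13 with ponatinib 10 mg/kg (edgeR adjusted p = 0.00383, 6 of 8 mice). Ndufv2, which forms the NADH-binding module with Ndufv1, had 69.6 to 115 CPM in control (median 86.5) and 98.5 to 166 with ponatinib 10 mg/kg (median 118). It rose with that treatment alone among the comparisons with control (log2 fold change 0.51 ± 0.12, edgeR adjusted p = 0.00281, 5 of 8 mice above every control).

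Ndufv1 and Ndufs3 did not pass the test in any comparison with control. Ndufv1, which binds NADH and flavin, had 150 to 204 CPM in control (median 178) and 180 to 277 with ponatinib 10 mg/kg (median 207). Its log2 fold change was 0.26 ± 0.10 there (edgeR adjusted p = 0.0799) and between 0.03 and 0.26 over the 6 treated groups.

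Ndufs3, a subunit of the quinone module, had 16.2 to 32.4 CPM in control (median 24.4) and 19.2 to 48.5 with ponatinib 10 mg/kg (median 29.9), a log2 fold change of 0.32 ± 0.17 (edgeR adjusted p = 0.22) that became -0.11 with the length trend removed. The groups overlapped for both genes.

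**Figure D4:**
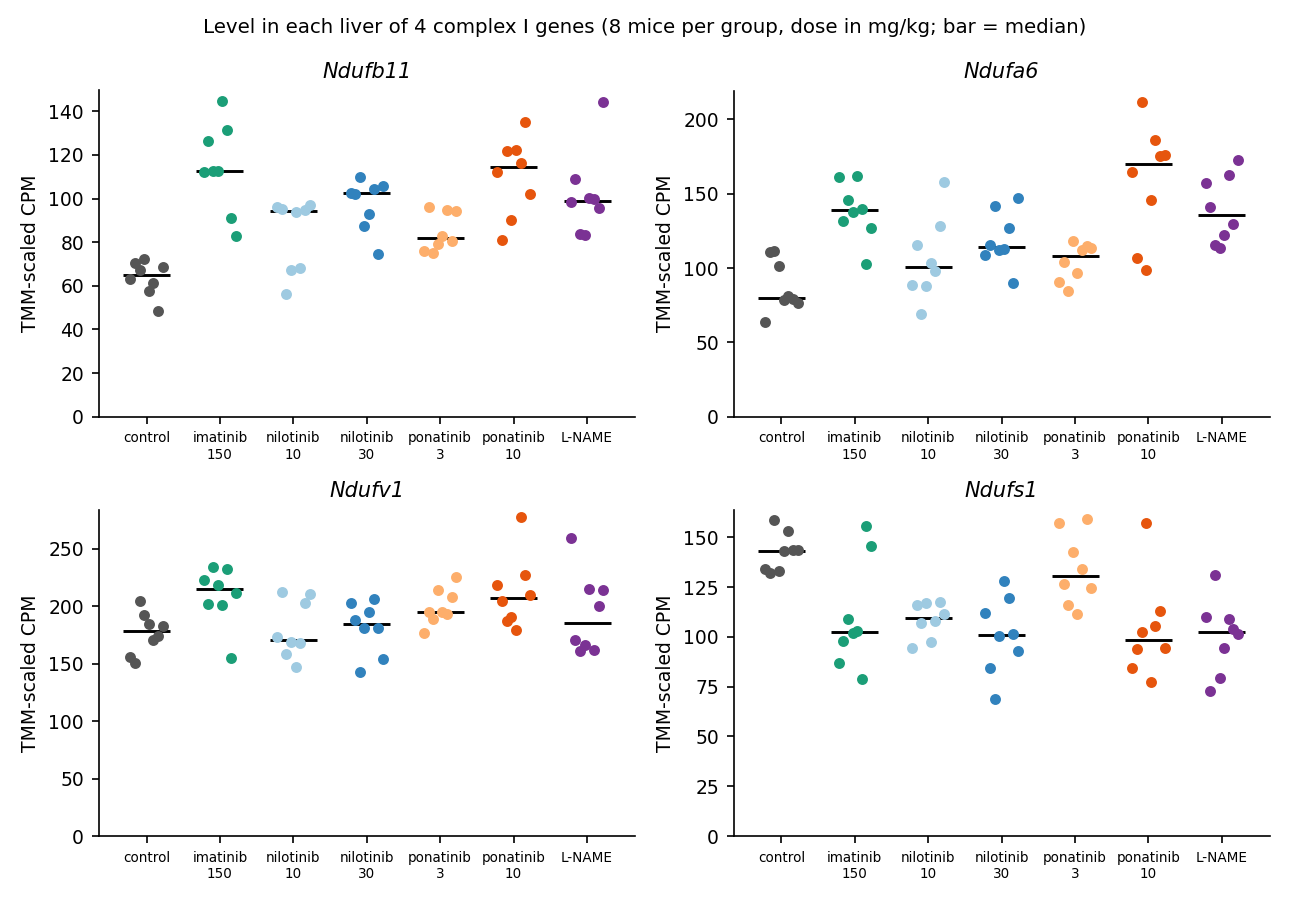
CPM (y axis) of Ndufb11, Ndufa6, Ndufv1 and Ndufs1 in each mouse by group (x axis), 8 points per group with a bar at the median. Ndufb11 of all 8 imatinib, nilotinib 30 mg/kg, ponatinib and L-NAME mice lies above every control, Ndufv1 overlaps control throughout, and Ndufs1 lies mostly below control except with ponatinib 3 mg/kg.

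Among the 9 accessory subunits of the peripheral arm, 7 rose with ponatinib 10 mg/kg and with imatinib, 6 with L-NAME, 4 with nilotinib 30 mg/kg and 0 with either lower dose. Ndufa6, a subunit of the LYR family that anchors the mitochondrial acyl carrier protein on the complex, had 64.1 to 111 CPM in control (median 80.1), 98.8 to 212 with ponatinib 10 mg/kg (median 170) and 113 to 173 with L-NAME (median 136). With L-NAME every mouse lay above every control, and with ponatinib 10 mg/kg 6 of 8 did. Its log2 fold change was 0.85 ± 0.14 with ponatinib 10 mg/kg (edgeR adjusted p = 4.47e-05) and 0.67 ± 0.14 with L-NAME (edgeR adjusted p = 0.00071).

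Ndufa2, a small subunit with a thioredoxin-like fold, had 39.2 to 57.0 CPM in control (median 40.6), 59.3 to 92.2 with imatinib (median 79.4) and 61.0 to 110 with L-NAME (median 74.4). Neither treated group overlapped control. The log2 fold changes were 0.78 ± 0.15 (edgeR adjusted p = 0.000508) and 0.82 ± 0.15 (edgeR adjusted p = 0.000211). With ponatinib 10 mg/kg the range was wider, 36.2 to 120 CPM (median 73.2), with 7 mice above and 1 below every control (log2 fold change 0.85 ± 0.15, edgeR adjusted p = 0.000108).

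Ndufa7 had 50.0 to 72.3 CPM in control (median 57.3), 64.1 to 119 with ponatinib 10 mg/kg (median 95.9) and 72.5 to 115 with L-NAME (median 85.6). This gave log2 fold changes of 0.68 ± 0.12 with ponatinib 10 mg/kg (edgeR adjusted p = 9.07e-05) and 0.59 ± 0.12 with L-NAME (edgeR adjusted p = 0.000663, 8 of 8 mice above every control). With the principal transcript length trend removed the L-NAME value turned to -0.12. Ndufs6, a zinc-binding subunit, rose in 4 comparisons, with its highest fold change in imatinib (0.81 on the log2 scale, edgeR adjusted p = 0.000508). Ndufa5 was the other member, beside Ndufb11, whose 8 ponatinib 10 mg/kg mice all lay above control (38.9 to 83.7 CPM against 18.2 to 35.3). Ndufa9 and Ndufs4, the latter a subunit mutated in Leigh syndrome, never passed: their log2 fold changes were 0.11 to 0.29 and 0.12 to 0.36.

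The smallest adjusted p of all members was that of Ndufb11, in the distal membrane arm. Of the 10 distal subunits 9 rose with ponatinib 10 mg/kg, 8 with imatinib, 7 with L-NAME and 4 with nilotinib 30 mg/kg. Ndufb11 (chrX:20615326-20617619, minus strand, mm10), a single-pass subunit whose human gene is mutated in X-linked mitochondrial disease, had 48.5 to 72.4 CPM in control (median 65.1). The ranges were 82.9 to 145 CPM with imatinib (median 113), 80.9 to 135 with ponatinib 10 mg/kg (median 114), 83.3 to 144 with L-NAME (median 99.0), 74.5 to 110 with nilotinib 30 mg/kg (median 102) and 74.9 to 96.0 with ponatinib 3 mg/kg (median 81.8). None of these 5 groups overlapped control. With nilotinib 10 mg/kg the range was 56.1 to 97.2 CPM (median 94.2), and 5 of 8 mice lay above every control.

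The log2 fold change of Ndufb11 was 0.84 ± 0.12 with imatinib (edgeR adjusted p = 4.15e-06), 0.79 ± 0.12 with ponatinib 10 mg/kg (edgeR adjusted p = 3e-05), 0.68 ± 0.12 with L-NAME (edgeR adjusted p = 0.000141) and 0.61 ± 0.12 with nilotinib 30 mg/kg (edgeR adjusted p = 0.00104). It was 0.41 ± 0.12 with ponatinib 3 mg/kg, which did not pass (edgeR adjusted p = 0.176). Full separation from control was counted for the 37 members and for all genes tested. All 8 treated mice lay above every control for 4 members with imatinib (0.706% of all genes), 5 with L-NAME (0.999%), 2 with nilotinib 30 mg/kg (0.461%), 2 with ponatinib 10 mg/kg (0.454%), 1 with ponatinib 3 mg/kg (0.0419%) and 0 with nilotinib 10 mg/kg (0.147%).

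Ndufb3 had 18.1 to 38.1 CPM in control (median 22.9), 26.1 to 56.5 with ponatinib 10 mg/kg (median 46.4) and 30.0 to 57.5 with nilotinib 30 mg/kg (median 40.0). Its log2 fold change was 0.88 ± 0.15 with ponatinib 10 mg/kg (edgeR adjusted p = 5.25e-05, 7 of 8 mice above every control) and 0.71 ± 0.15 with nilotinib 30 mg/kg (edgeR adjusted p = 0.0018). Ndufb7, a subunit on the intermembrane-space side, had 33.7 to 81.5 CPM in control (median 43.6), where 1 mouse stood well above the rest, and 54.3 to 113 with ponatinib 10 mg/kg (median 89.1). The difference was 0.87 ± 0.16 on the log2 scale (edgeR adjusted p = 0.000185), with 5 of 8 mice above every control. Ndufb2 and Ndufb9 rose in 4 and 3 comparisons, with highest log2 fold changes of 0.85 and 0.68, both with imatinib. Ndufb4 and Ndufb6 passed in 1 comparison each.

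Of the 9 proximal subunits 7 rose with ponatinib 10 mg/kg, 6 with imatinib and with L-NAME and 3 with nilotinib 30 mg/kg. Ndufa3 had 18.3 to 35.3 CPM in control (median 29.9) and 39.2 to 67.1 with imatinib (median 57.0), without overlap. Its log2 fold change was 0.92 ± 0.20 (edgeR adjusted p = 0.00128). With ponatinib 10 mg/kg it spread from 15.5 to 88.7 CPM (median 57.7), with 7 mice above and 1 below every control (log2 fold change 0.97 ± 0.20, edgeR adjusted p = 0.000496). Ndufa13, also known as Grim19, and Ndufa8 rose in 4 comparisons each, with highest log2 fold changes of 0.76 and 0.66, both with ponatinib 10 mg/kg. Ndufa10 stayed near control, with log2 fold changes of -0.06 to 0.19.

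Outside the complex, Ndufa4 was the member called most often. It encodes a protein first assigned to complex I and now counted as a subunit of cytochrome c oxidase. Control mice had 123 to 164 CPM (median 136), L-NAME mice 182 to 327 (median 228), and nilotinib 30 mg/kg mice 186 to 262 (median 207), both without overlap with control. The log2 fold changes were 0.70 ± 0.12 with L-NAME (edgeR adjusted p = 7.46e-05), 0.62 ± 0.12 with nilotinib 30 mg/kg (edgeR adjusted p = 0.00092), 0.66 ± 0.12 with ponatinib 10 mg/kg (edgeR adjusted p = 0.000107), 0.65 ± 0.12 with imatinib (edgeR adjusted p = 0.000198) and 0.44 ± 0.12 with nilotinib 10 mg/kg (edgeR adjusted p = 0.0412). Its paralog Ndufa4l2, a gene induced by hypoxia in many cells, had 0 to 6.48 CPM over all mice, and its log2 fold change with ponatinib 10 mg/kg, 0.09 ± 0.67, could not be told from 0 at this depth.

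Upstream sequences were read for members that moved together. The RefSeq table for GRCm38.p6 held promoter windows for 32 of the 37 members (34 windows). The 250 bases before the start were searched on both strands for short spellings of sites of factors known from genes of mitochondrial proteins, chosen after the matches had been looked at. A match is a description of the letters and no evidence of binding. Because the spellings were picked with these matches known, the shares below describe the windows and cannot test for enrichment. The 34 windows belong to 32 members, so a gene with several windows could enter a share repeatedly. NRF1 as TGCGCA occurred in 23.5% of the member windows (8 of 34) against 6.43% of all 32851 windows and 8.25% of the 19942 windows of protein-coding genes. YY1 as ATGGCGG occurred in 11.8% against 2.21% and 2.63%, and ERR as AAGGTCA in 8.82% against 4.08% and 3.56%. The GABP or ETS spelling CCGGAAG occurred in 8.82% of the member windows, above the share of all windows (6.91%) and below that of protein-coding genes (9.33%). NF-Y as CCAAT occurred in 29.4% against 33.8% and 35.0%. No spelling contains another. The 4 members printed below were picked by hand among those with low p-values and are not the 4 lowest. Ndufb3, not printed, had a smaller edgeR adjusted p (5.25e-05) than Ndufb7 (0.000185). The last 120 bases before the start are given in coding direction, with matches in capitals (ATTGG is CCAAT on the other strand):
Ndufb11, chrX:20617620-20617739, minus strand: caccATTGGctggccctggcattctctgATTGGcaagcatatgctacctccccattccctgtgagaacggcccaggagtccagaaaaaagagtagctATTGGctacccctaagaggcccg
Ndufb7, chr8:83566638-83566757, plus strand: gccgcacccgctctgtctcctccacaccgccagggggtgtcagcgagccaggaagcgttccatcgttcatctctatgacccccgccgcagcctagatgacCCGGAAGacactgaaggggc
Ndufa6, chr15:82354292-82354411, minus strand: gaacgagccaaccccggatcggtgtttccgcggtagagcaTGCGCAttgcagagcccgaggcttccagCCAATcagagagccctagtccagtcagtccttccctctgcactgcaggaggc
Ndufa7, chr17:33824452-33824571, plus strand: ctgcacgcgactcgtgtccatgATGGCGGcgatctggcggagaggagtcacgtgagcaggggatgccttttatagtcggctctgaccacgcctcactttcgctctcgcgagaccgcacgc
The 4 windows shared no single spelling: Ndufb11 held 3 NF-Y matches, Ndufa6 an NRF1 and an NF-Y match, Ndufb7 an ETS match and Ndufa7 a YY1 match. Starts here are those of RefSeq. In the GENCODE annotation Ndufb7 starts at base 83566671 and Ndufa6 at base 82354322, inside the printed windows. Part of both windows, with the ETS match of Ndufb7, therefore lies within the GENCODE gene.

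Doses of the same drug were compared directly. Between ponatinib 10 and 3 mg/kg, 4 members were higher at the higher dose (0.971% of all genes were) and 0 lower (0.419%), with a median log2 difference of 0.38 over the 37 members. They were Ndufa6 (0.60 ± 0.14, edgeR adjusted p = 0.0171), Ndufa2 (0.59 ± 0.15, edgeR adjusted p = 0.0334), Ndufb6 (0.53, edgeR adjusted p = 0.0369) and Ndufc1 (0.68, edgeR adjusted p = 0.0481). Ndufb6 and Ndufc1, small single-pass subunits, are named because they passed here. Their ranges overlapped between the doses: Ndufb6 had 43.3 to 66.2 CPM at 3 mg/kg and 50.4 to 95.2 at 10 mg/kg, and Ndufc1 9.58 to 18.3 and 14.1 to 34.5. All 4 calls were lost when only the 16 mice of both doses entered the fit.

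Between nilotinib 30 and 10 mg/kg no member passed edgeR's test (0% of all genes did in either direction), and DESeq2 and limma voom also called 0. The median log2 difference was 0.13, and 3 members had an unadjusted p below 0.05 (5.67% of all genes did). For 35 of 37 members the 95% interval of the difference lay within 1 log2 unit of 0 on either side, and for 24 within 0.5.

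Drug groups were also set against L-NAME, a comparison that leaves the control mice out. With imatinib 0 members passed edgeR's test (1.23% of all genes were called higher and 1.89% lower), and the fitted log2 differences ran from -0.10 to 0.31 with a median of 0.05. With nilotinib 30 mg/kg 0 passed (0% and 0.00699%), from -0.25 to 0.51 with a median of -0.07. With ponatinib 10 mg/kg 0 passed (0.3% and 0.119%), from -0.14 to 0.28 with a median of 0.12. Unadjusted p fell below 0.05 for 1, 1 and 0 members (14.2%, 6.03% and 8.13% of all genes), and DESeq2 and limma voom called 0 in all 3. The 95% interval lay within 1 log2 unit of 0 for 36, 36 and 35 of 37 members, and within 0.5 for 31, 28 and 27.

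Across the 56 mice the mean log2 CPM of the complex I members went with the share of uniquely aligned reads outside genes (Pearson's r = 0.612, Spearman's rho = 0.720). After the group means were taken off both measures r was 0.413 and rho 0.454. Within single groups r ran from 0.0567 with ponatinib 3 mg/kg to 0.720 with ponatinib 10 mg/kg, and was 0.622 in control. These values describe libraries that share depth and processing. With that share as a covariate in the fit, 8 members were called higher with ponatinib 10 mg/kg (1.65% of all genes under that fit), 14 with imatinib (2.67%), 3 with L-NAME (0.922%) and 2 with nilotinib 30 mg/kg (0.245%), and Ndufs1 was no longer called. In 4 groups the share did not overlap control, so there the covariate and the treatment can hardly be told apart.

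**Figure D5:**
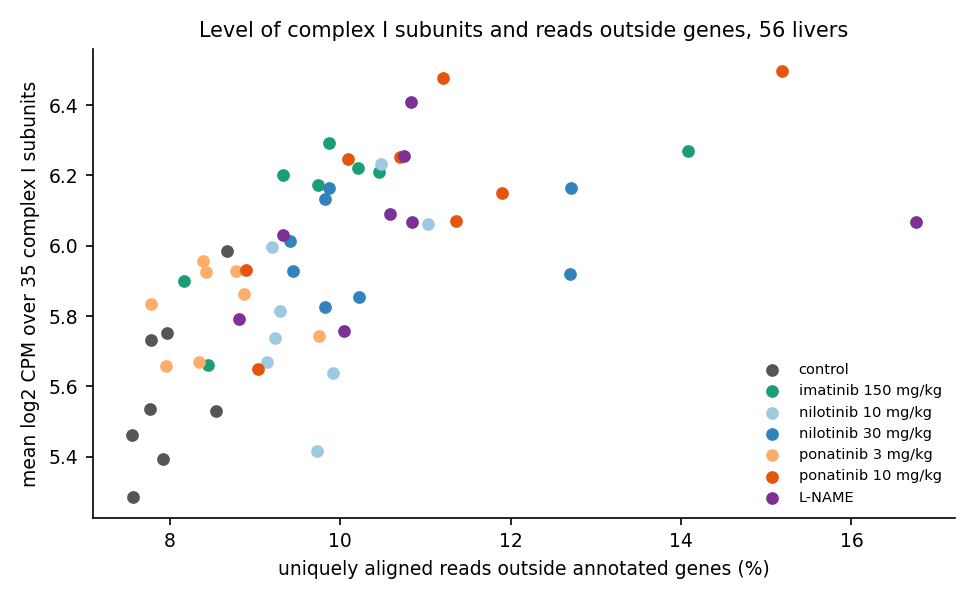
Mean log2 CPM of the 35 complex I members (y axis) against the percent of uniquely aligned reads outside annotated genes (x axis), 1 point per mouse and coloured by group. Mice with a larger share tended to have higher member levels (Pearson's r = 0.612 over 56 mice), and control mice lie at the left, at 7.55 to 8.67%.

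Other genes of the pathway were counted by list. Mitochondrial DNA encodes 7 subunits of the membrane arm. With imatinib mt-Nd1 rose from 4119 to 6181 CPM in control (median 5721) to 5899 to 10743 (median 7922), a log2 fold change of 0.59 ± 0.11 (edgeR adjusted p = 0.000296, 7 of 8 mice above every control). There mt-Nd2 rose by 0.46 ± 0.13 (edgeR adjusted p = 0.0183).

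None of the 5 mt-Nd genes tested passed edgeR's test with another treatment. An unadjusted p below 0.05 was found for 2 at the higher dose of nilotinib (18.7% of all genes) and of ponatinib (25.8%). It was found for 1 with L-NAME (24.2%), 1 at 10 mg/kg nilotinib (14.2%) and 0 at 3 mg/kg ponatinib (9.96%). In those groups mt-Nd1 had log2 fold changes of 0.11 to 0.32, and mt-Nd4, mt-Nd5 and mt-Nd6 ranged over all groups from 0.09 to 0.33, -0.39 to 0.13 and -0.23 to 0.46. The 2 others, mt-Nd3 and mt-Nd4l, had at most 14 reads in a mouse and were not tested. The accessory subunit Ndufab1, the mitochondrial acyl carrier protein, lies outside the naming rule and rose with imatinib (0.63 ± 0.15, edgeR adjusted p = 0.00312), ponatinib 10 mg/kg (0.76 ± 0.15, edgeR adjusted p = 0.000296) and L-NAME (0.47 ± 0.15, edgeR adjusted p = 0.0253).

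Assembly factors, which build the complex but are not part of it, showed few calls among 16 genes: 2 higher with imatinib, 1 with nilotinib 30 mg/kg, 1 with ponatinib 10 mg/kg, 2 higher and 1 lower with L-NAME. Ndufaf8 rose with imatinib, nilotinib 30 mg/kg and L-NAME (log2 fold change 0.85, 0.91 and 0.81), and Ndufaf3 with ponatinib 10 mg/kg and L-NAME (1.09 and 0.98). The median of the 16 lay between -0.03 and 0.14. Of 10 regulators of mitochondrial biogenesis, Gabpa, a subunit of the ETS factor GABP, fell by 0.50 on the log2 scale with nilotinib 30 mg/kg (edgeR adjusted p = 0.0147) and by 0.41 with ponatinib 10 mg/kg (edgeR adjusted p = 0.0302). Esrra, an orphan nuclear receptor that acts on genes of oxidative metabolism, rose by 0.58 with ponatinib 10 mg/kg (edgeR adjusted p = 0.0398). The other 8 did not pass against control. Of all genes, 3.43% were called lower with nilotinib 30 mg/kg, and 5.87% lower and 7.24% higher with ponatinib 10 mg/kg.

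Counts of the same kind were taken for other gene families. Nuclear subunits of complexes II to V (43 tested) had 26 called higher with ponatinib 10 mg/kg and with imatinib, 25 with L-NAME, 16 and 1 with nilotinib 30 and 10 mg/kg, and 0 with ponatinib 3 mg/kg. Their median log2 fold changes were 0.69, 0.58, 0.50, 0.38, 0.31 and 0.27 in the same order. Cytosolic ribosomal protein genes (76 tested) had 33, 30, 34, 21, 12 and 0 called higher in that order, with medians of 0.58, 0.52, 0.61, 0.50, 0.39 and 0.22. The shares of all genes called higher, in that order, were 7.24%, 5.69%, 5.55%, 2.34%, 0.468% and 0%. The difference of both families from the complex I members was not tested.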

How the data were processed

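Liver mRNA of 56 mice (8 in each of 7 groups) was measured by poly(A) RNA sequencing. The authors aligned reads with TopHat2 2.0.14 and Bowtie2 2.1.0 to GRCm38 (SAMtools 0.1.18) and counted them per gene with HTSeq 0.6.1p1; the deposited values are raw counts, 1 table per mouse. The strand setting and annotation release were not given in the sources used here. Rows for reads outside genes or not uniquely aligned stayed out of library sizes. Genes were named and measured with GENCODE vM21, which held 44671 of the 45513 identifiers.

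Counts were tested with edgeR 4.0.16 (quasi-likelihood, TMM, its expression filter, 1 fit of all 56 mice, 11 comparisons, Benjamini-Hochberg over 14314 genes, adjusted p below 0.05), using R 4.3.3. CPM are TMM-scaled, and exon length is the union of annotated exons. Error after ± is the SE of a log2 fold change or the SD of a mean. The share of reads outside genes was compared by exact permutation (scipy 1.17.1). Counts from single libraries carry counting error, which the fit includes. The scripts were tested on simulated data.

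Alternatives were 2 scalings, no filter, DESeq2 1.42.0, limma voom 3.58.1, 2 other thresholds, other sets of mice, a covariate and length or GC trends; 6 of them were added after the data were seen. Named members are the core subunits (1 is not reported here, though counts and medians include it), the 3 lowest p-values in each comparison with control, Ndufa4, Ndufa4l2 and members called against the others' direction; more are named where a count needs them. Members and lists were chosen with earlier results of these data known. Labels name no batch. Mice were housed several to a cage per the study's supplement, and which shared one was not given in the sources used here, so p-values measure the spread between these mice.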

Additional observations from a re-analysis of the deposited data

Results flagged for a closer look

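In 11 of the 119 group values checked, 1 mouse of a group stood apart from the other 7 by more than Dixon's 95% limit, where chance gives about 1 in 20. Among core genes, Ndufs3 was lowest in 1 nilotinib 10 mg/kg mouse (11.5 CPM, next 27.7), Ndufs1 was highest in 1 ponatinib 10 mg/kg mouse (157 CPM, next 113), and Ndufv1 and Ndufs8 were lowest in the same imatinib mouse (155 CPM, next 201, and 56.1 CPM, next 86.5). The ponatinib 10 mg/kg mouse with the high Ndufs1 value also had the low Ndufb3 value (26.1 CPM, next 44.8).

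Control mouse 3 had the highest Ndufa2 (57.0 CPM, next 47.4) and Ndufb7 (81.5 CPM, next 54.3). L-NAME mouse 8 had the highest Ndufa4 (327 CPM, next 235) and Ndufb11 (144 CPM, next 109). The share of reads outside genes stood apart in 1 imatinib library (14.1%, next 10.5%) and in the deepest L-NAME library (16.8%, next 10.8%).

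The effects of the 2 ponatinib doses differed in the direct test for 4 members: log2 differences of 0.59 for Ndufa2, 0.60 for Ndufa6, 0.68 for Ndufc1 and 0.53 for Ndufb6, higher at 10 mg/kg. No explanation was tested.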

How the results depend on the processing

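Depth limits the members with few reads most: Ndufb4, Ndufs5 and Ndufa4l2 have intervals too wide to read a small change. No paired analysis was possible because the replicate numbers follow the order of deposit and tie no mice together. Exon GC content could not be computed without a genome of the build, and the GC content of the longest transcript took its place.

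Counts below are members called, both directions together, each with the share of all genes called under the same setting (for DESeq2, of the genes with an adjusted p). For imatinib, 25 in the report, the adjusted p limit of 0.01 gave 16 (4.12%), the read-share covariate 14 (4.56%), exon length 14 (7.19%) and principal transcript length 3 (5.97%). For nilotinib 10 mg/kg, 1 in the report, DESeq2 gave 6 (5.48%), limma voom 19 (8.66%), unadjusted p below 0.01 gave 8 (5.97%) and the 16 mice of the groups compared 2 (2.24%); no filter, the adjusted limit of 0.01, the covariate, both lengths, GC and leaving out 5 libraries with over 12% of reads outside genes gave 0 (0.0908% to 1.77%). For nilotinib 30 mg/kg, 14 in the report, no filter gave 9 (2.94%), limma voom 28 (16.4%), the adjusted limit of 0.01 gave 6 (2.05%), the covariate 2 (0.671%), exon length 6 (3.77%), principal transcript length 2 (3.44%) and leaving out the 5 libraries 7 (4.9%). For ponatinib 3 mg/kg, 0 in the report, DESeq2 gave 1 (1.67%), limma voom 13 (3.99%) and unadjusted p below 0.01 gave 2 (3.14%). For ponatinib 10 mg/kg, 28 in the report, the covariate gave 8 (2.58%), exon length 18 (10.8%) and principal transcript length 6 (9.5%), and for L-NAME, 22 in the report, these gave 3 (1.8%), 11 (9.05%) and 2 (7.79%). Between the ponatinib doses, 4 in the report, DESeq2 gave 11 (4.97%), limma voom 19 (6.95%), unadjusted p below 0.01 gave 17 (5.78%), the 48 mice without L-NAME 2 (1.07%), no filter 1 (0.416%), exon length 1 (0.929%), and the adjusted limit of 0.01, the 16 mice, the covariate, principal transcript length and leaving out the 5 libraries 0 (0% to 0.936%). Leaving out the deepest library (L-NAME replicate 2) gave 21 for L-NAME (9.71%) and 12 for nilotinib 30 mg/kg (5.61%). The comparisons with L-NAME and between the nilotinib doses gave 0 throughout.

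Removing the trend with principal transcript length turned Ndufa7 with imatinib to -0.038 and with L-NAME to -0.12, Ndufa6 with nilotinib 30 mg/kg to -0.049, and Ndufs3 with ponatinib 10 mg/kg to -0.11 (log2). Ndufa4l2 with ponatinib 10 mg/kg became -0.63 by limma voom, -0.22 with exon length, -0.36 with principal transcript length and -0.093 with GC removed. Of 47 called values of named members, 47 kept their call with either other scaling, 33 with exon length and 7 with principal transcript length removed. With the share of reads outside genes as covariate 22 kept it, at the adjusted limit of 0.01 36, and without the 5 libraries 37. The cause was not tested.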
